A study of Mus musculus with 14 samples.

Results

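The genes described here are 37 nuclear receptors, chosen to lie outside the classical receptors for sex steroids and corticosteroids, except that Esr2, the gene of estrogen receptor beta and itself a steroid receptor, is among them. Members were chosen by name, and 37 of the 37 symbols were found among the 31274 symbols of the deposited expression table. RNA sequencing gave their transcript levels in the whole uterus of FVB/N mice, an inbred strain, that were 2 months old, kept their ovaries and were untreated. The 14 libraries fall into 4 groups by genotype and by stage of the estrous cycle: 3 of HIF2A cKO uteri at estrus, 3 of WT uteri at estrus, 4 of HIF2A cKO uteri at diestrus and 4 of WT uteri at diestrus. HIF2A cKO stands for a conditional knockout of HIF2A, a hypoxia-inducible transcription factor encoded by Epas1. The sources used here do not give the promoter that drives the recombinase, or the cells it acts in. No label says whether a library is 1 animal or a pool, so the spread behind each p-value is that of these libraries and may be technical.

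Nuclear receptors are transcription factors whose activity is set, for many of them, by a small fat-soluble ligand such as thyroid hormone, retinoic acid, vitamin D, an oxysterol or a fatty acid. Many bind DNA as a pair with a retinoid X receptor, and they recruit coactivators or corepressors according to whether ligand is bound. The uterus is remodelled in each cycle: diestrus is the phase of high progesterone, and estrus follows the estrogen peak around ovulation. Retinoic acid and vitamin D signalling are both known to act in the uterine lining.

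Levels are given as FPKM, which counts sequenced fragments relative to the length of the transcript and to the mapped fragments of the library, so levels of different genes can be compared. Differences are given as log2 differences, the difference between group means of log2(FPKM + 1), with their standard error (SE), from a single limma fit of the 14 libraries. This scale understates the change of genes near or below 1 FPKM. A gene counts as higher or lower where its Benjamini-Hochberg adjusted p over 14278 genes was under 0.05.

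The check on the genotype labels did not show a loss of the targeted transcript. Epas1 had 41.2 ± 4.01 FPKM in HIF2A cKO and 32.9 ± 1.56 FPKM in WT uteri at estrus (SD, n = 3 each; exact two-sided permutation p = 0.1, the smallest that 3 against 3 allows), and 39.5 ± 4.44 FPKM in HIF2A cKO and 34.8 ± 5.82 FPKM in WT uteri at diestrus (SD, n = 4 each; exact p = 0.257). A table of FPKM per gene cannot show whether part of the transcript is deleted, so the direction of every genotype difference rests on the libraries labelled HIF2A cKO. Correlations between libraries of a group ran between 0.956 and 0.994. Replicate 4 of the HIF2A cKO diestrus group stood apart in Rn45s, a ribosomal RNA precursor, at 1890 FPKM, followed by replicate 1 of HIF2A cKO at estrus at 819 FPKM. The other 12 libraries lay between 208 and 578 FPKM, and among them WT was at 456 to 578 FPKM at diestrus and 208 to 280 FPKM at estrus. In WT uteri, 4 transcripts read for RNA quality summed to 613 to 712 FPKM at diestrus and 459 to 559 FPKM at estrus. In HIF2A cKO uteri they summed to 306, 312, 360 and, in replicate 4, 2001 FPKM at diestrus, and to 458, 464 and 1059 FPKM at estrus. The part of RNA quality in the stage differences was not tested. Uterine cell markers were present: the summed level of 12 epithelial markers was 1471 to 1652 FPKM in HIF2A cKO and 1153 to 1394 FPKM in WT uteri at estrus, and 474 to 1090 FPKM in HIF2A cKO and 383 to 672 FPKM in WT uteri at diestrus. Among the markers of other organs, 11 of 13 ovarian and 5 of 8 liver genes stayed below 1 FPKM in all 14 libraries.

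The mean over the 14 libraries spread the receptors over several orders of magnitude. It was at least 20 FPKM for 6 of them, from 5 to 20 FPKM for 7, from 1 to 5 FPKM for 9 and below 1 FPKM for 15. Nr1h2, the oxysterol receptor LXR beta, had the highest mean at 48.1 FPKM, followed by Thra, thyroid hormone receptor alpha, at 42.4 FPKM and Nr2f6, an orphan receptor of the COUP-TF type, at 33.9 FPKM. Nr1h2 exceeded Thra in 10 of 14 libraries and Thra exceeded Nr2f6 in 12 of 14. Rarg and Rxrb, at 26.2 and 25.5 FPKM, were each above the other in 7 of 14 libraries, and their order followed the groups. Rxrb was above Rarg in every estrus library, and Rarg was above Rxrb in every HIF2A cKO diestrus library. The mean of Rxra was close below those of Rarg and Rxrb, at 22.9 FPKM. The next were Rara at 15.7 FPKM, Esrra at 14.9 FPKM, Ppard at 11.8 FPKM, Nr2c2 at 11.0 FPKM and Nr2c1 at 9.79 FPKM. Of these, each was above its next neighbour in the order in 8 to 10 of 14 libraries. Rara lay above Esrra, and Nr2c2 above Nr2c1, in every diestrus library, and both orders were reversed in every estrus library.

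**Figure D1:**
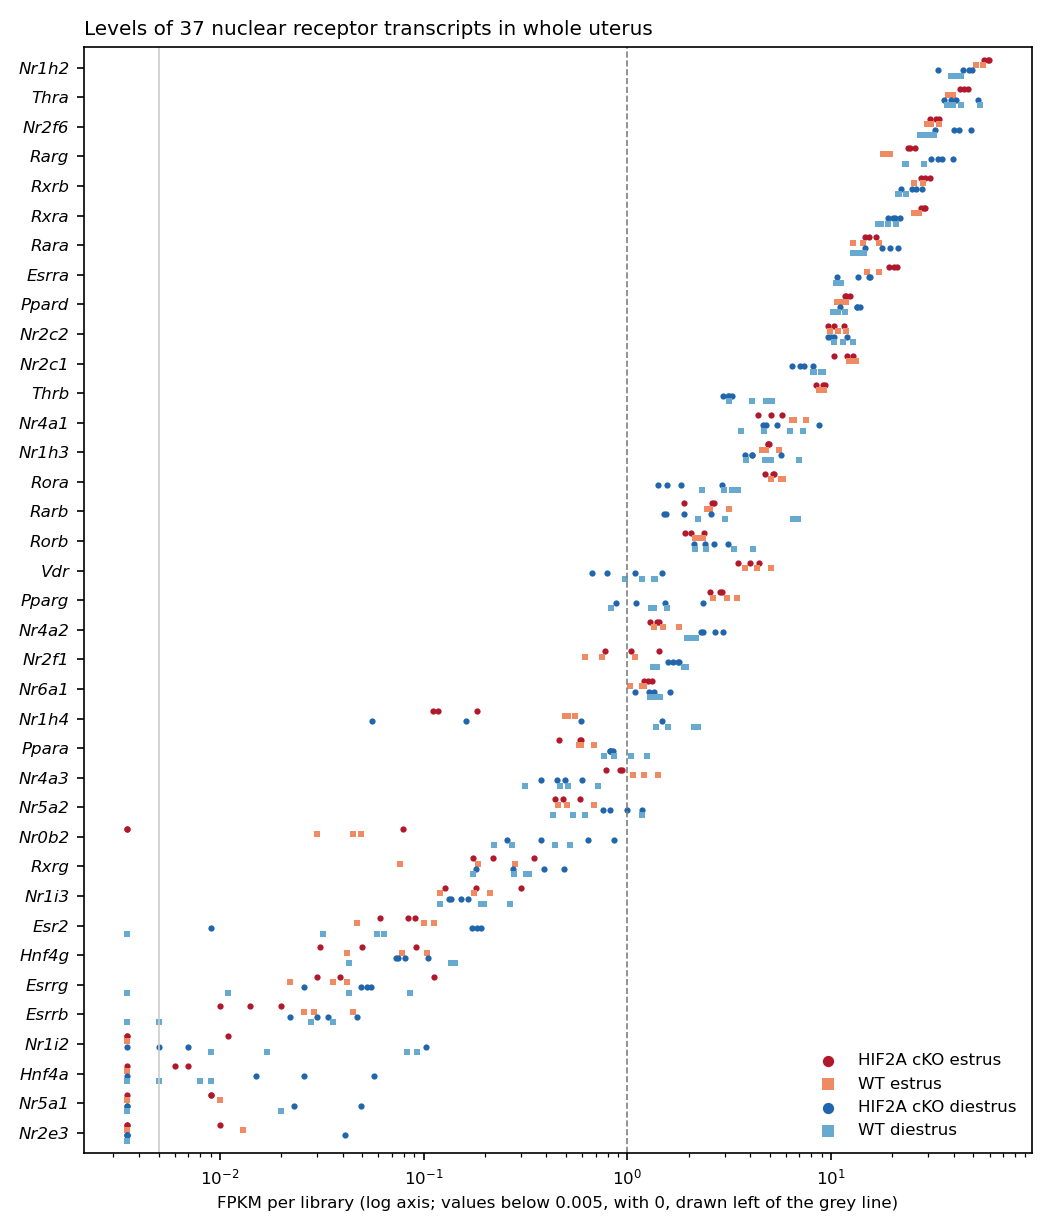
FPKM of the 37 receptors in each of the 14 libraries, on a log axis, in the order of their mean; red and orange points are estrus and blue points are diestrus, with circles for HIF2A cKO and squares for WT. The dashed line is 1 FPKM, points left of the grey line are at or near 0, and 15 receptors have a mean below 1 FPKM.

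A filter of at least 1 FPKM in at least 3 libraries left 24 receptors for testing. Just inside it were Nr4a3, with 3 libraries at 1 FPKM or more, all of WT at estrus, and Nr1h4, with 5, of which 4 were WT at diestrus; both passed through the group in which they were high, so a test against that group is not independent of the filter. The calls on these 2 are therefore described with the adjusted p that no filter on low values gave. Just outside it were Ppara and Nr5a2, each with 2 such libraries. The other 11 receptors below the filter reached 1 FPKM in no library. Over all 14 libraries Nr0b2 spanned 0 to 0.858 FPKM, Rxrg 0.077 to 0.489 FPKM, Nr1i3 0.121 to 0.302 FPKM, Esr2 0 to 0.192 FPKM and Hnf4g 0.031 to 0.143 FPKM. Lower still were Esrrg at 0 to 0.113 FPKM, Nr1i2 at 0 to 0.103 FPKM, Hnf4a at 0 to 0.057 FPKM, Nr5a1 at 0 to 0.049 FPKM, Esrrb at 0 to 0.047 FPKM and Nr2e3 at 0 to 0.041 FPKM. This set holds the receptors best known from other organs: Hnf4a, Nr1i2 (PXR) and Nr1i3 (CAR) from the liver, Nr5a1 (SF-1) from steroid-making glands and Nr2e3 from the retina. Values of Nr1i3 are uncertain, since 74.9% of its exon bases are shared with Tomm40l on the opposite strand and the sources used here do not say whether counting was stranded; without strand, reads of such a pair cannot be told apart.

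Between estrus and diestrus, 10 of the 24 tested receptors were higher at estrus and 4 were lower in HIF2A cKO uteri, where 25.5% of all genes tested were higher and 36.5% lower. In WT uteri 10 were also higher and 4 lower, against 23% and 34.1% of all genes. Without Nr4a3 and Nr1h4, 9 of 22 receptors were higher and 4 lower in HIF2A cKO, and 9 were higher and 3 lower in WT uteri. With them, and in either direction, it is 58.3% of the receptors in each genotype, near the share of all genes called, which was 62% in HIF2A cKO and 57.2% in WT uteri. The median log2 difference of the receptors was 0.12 in HIF2A cKO and 0.08 in WT uteri, beside -0.08 and -0.09 for all genes. Counts of listed pathway genes between stages, given further below, have the same shares of all genes as background. Between genotypes at diestrus, 13.8% of all genes were higher in HIF2A cKO and 10% lower. Thrb, Rora, Vdr, Pparg, Nr1h2, Rxra, Rxrb, Nr2c1, Esrra and Nr4a3 were higher at estrus in both genotypes, and Rarg, Nr2f1 and Nr4a2 were lower in both. Estrus libraries lay wholly above diestrus libraries for 9 receptors in HIF2A cKO and 10 in WT uteri, where this held for 26.1% and 24.2% of all genes. They lay wholly below for 3 and 5 receptors, where it was 37% and 36.9% of all genes. These counts include Nr4a3, above in both genotypes, and Nr1h4, below in WT uteri. In WT uteri the places of Nr4a3 and Nr1h4 are not independent of the filter.

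Cell markers moved with the stage. Summed macrophage markers were 526 to 703 FPKM in HIF2A cKO and 502 to 570 FPKM in WT uteri at estrus, and 223 to 307 FPKM in HIF2A cKO and 277 to 350 FPKM in WT uteri at diestrus. Stromal markers were lower at estrus, at 2328 to 2411 FPKM in HIF2A cKO and 1972 to 2174 FPKM in WT uteri, and at diestrus 2985 to 3643 FPKM in HIF2A cKO and 2650 to 3445 FPKM in WT uteri. Skeletal muscle markers, of which 4 of 7 stayed below 1 FPKM everywhere, summed to 25.5 to 29.0 FPKM in HIF2A cKO and 24.6 to 27.3 FPKM in WT uteri at estrus, and to 157 to 218 FPKM in HIF2A cKO and 165 to 313 FPKM in WT uteri at diestrus. Only 1 of the 3 tested skeletal muscle markers was lower at estrus in each genotype, so this sum rests on few genes. In whole tissue, fewer cells of a type and less RNA per cell cannot be told apart, and the part of these shifts in the receptor differences was not tested.

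**Figure D2:**
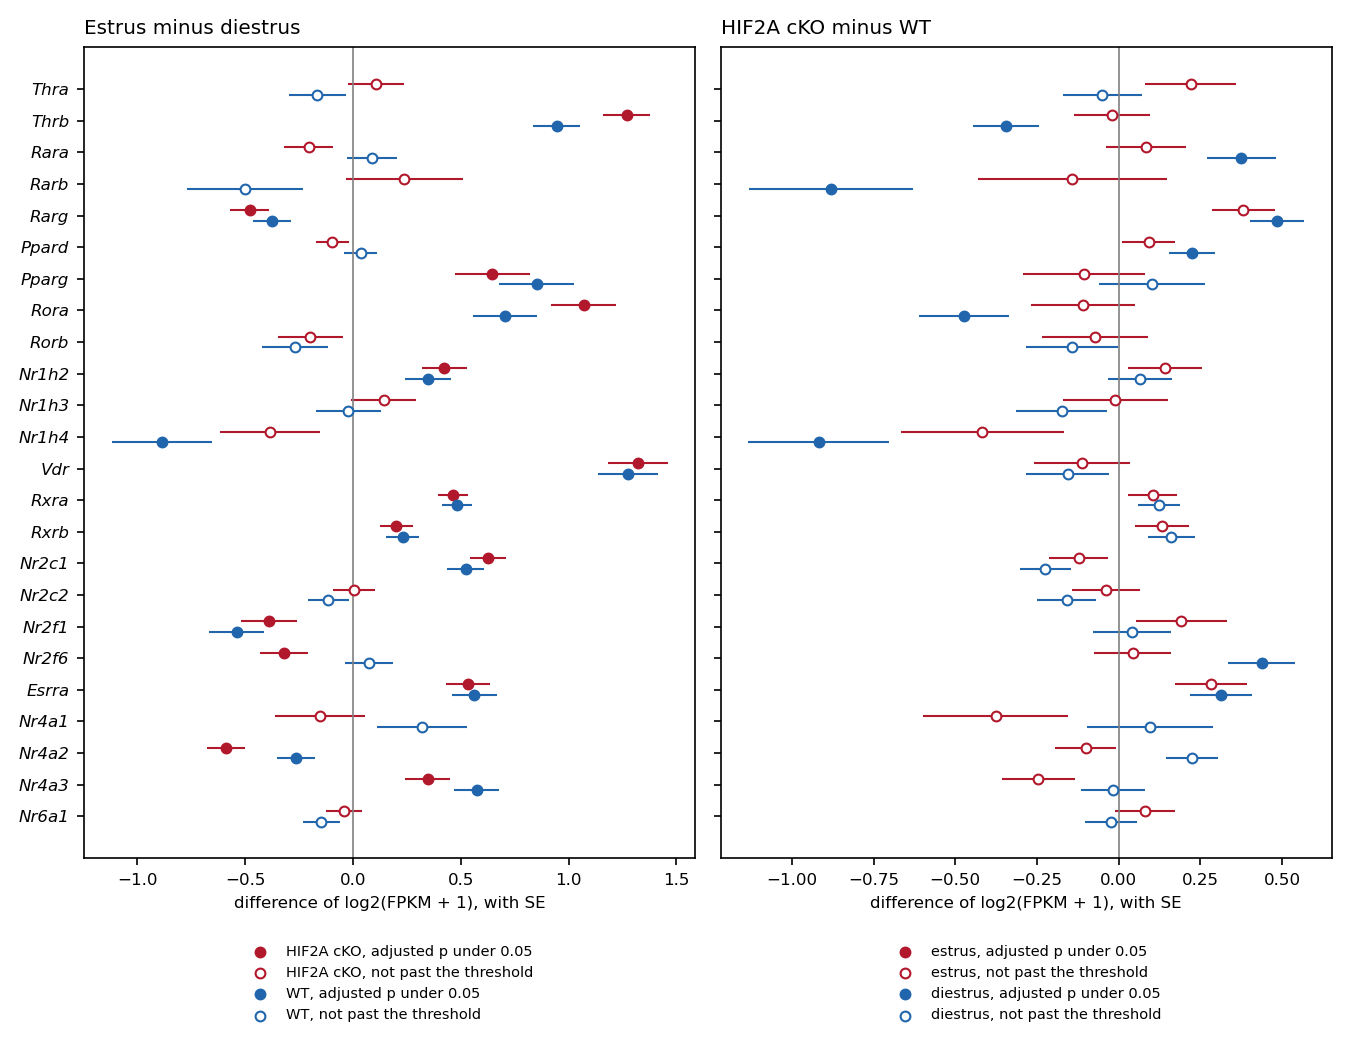
Log2 differences of the 24 tested receptors with their SE: on the left estrus minus diestrus in HIF2A cKO (red) and WT (blue), on the right HIF2A cKO minus WT at estrus (red) and diestrus (blue). Filled points have an adjusted p under 0.05; 14 are filled in each genotype on the left, and on the right 9 are filled at diestrus and 0 at estrus.

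Vdr, the vitamin D receptor, had the largest log2 difference between the stages among the tested receptors, in both genotypes. At estrus it stood at 3.50, 4.44 and 4.00 FPKM in HIF2A cKO and at 4.31, 3.78 and 5.07 FPKM in WT uteri. Diestrus values were 1.09, 0.791, 1.49 and 0.673 FPKM in HIF2A cKO and 1.19, 0.977, 1.37 and 1.35 FPKM in WT uteri, so every estrus library lay above every diestrus library. Vdr rose by a log2 difference of 1.32 (SE 0.14, adjusted p = 4.95e-06) in HIF2A cKO and 1.28 (SE 0.14, adjusted p = 1.12e-05) in WT uteri, and the ratio of mean FPKM was 3.94 in HIF2A cKO and 3.60 in WT uteri. Of 8 tested genes of vitamin D activation and response, 4 were higher and 0 lower at estrus in HIF2A cKO, and 3 were higher and 1 lower in WT uteri. The shares of all genes were 25.5% higher and 36.5% lower in HIF2A cKO, and 23% and 34.1% in WT uteri. Trpv6, an epithelial calcium channel, averaged 100.1 ± 7.48 FPKM in HIF2A cKO and 82.7 ± 12.9 FPKM in WT uteri at estrus (SD, n = 3 each), against 11.99 ± 7.18 FPKM in HIF2A cKO and 4.94 ± 3.87 FPKM in WT uteri at diestrus (SD, n = 4 each). Slc34a2, a phosphate carrier, was at 11.9 ± 3.22 and 9.26 ± 1.68 FPKM at estrus in HIF2A cKO and WT uteri (SD, n = 3 each), and at 1.09 ± 0.51 and 0.586 ± 0.346 FPKM at diestrus (SD, n = 4 each). Spp1, the gene of osteopontin, was higher at estrus in HIF2A cKO uteri by a log2 difference of 2.73 (SE 0.53, adjusted p = 6.21e-04). Between genotypes Vdr overlapped at both stages.

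Of the thyroid hormone receptors, Thrb changed over the cycle and Thra did not pass the test. Thrb was at 9.14, 9.30 and 8.40 FPKM in HIF2A cKO and at 9.25, 9.22 and 8.78 FPKM in WT uteri at estrus. It was at 3.14, 3.26, 3.14 and 2.96 FPKM in HIF2A cKO and at 4.79, 3.16, 4.07 and 5.14 FPKM in WT uteri at diestrus. All estrus libraries exceeded all diestrus libraries, and the diestrus values of the genotypes overlapped through replicate 2 of WT. Thrb rose at estrus by a log2 difference of 1.27 (SE 0.11, adjusted p = 1.13e-06) in HIF2A cKO and 0.95 (SE 0.11, adjusted p = 1.88e-05) in WT uteri, and at diestrus it was lower in HIF2A cKO by -0.34 (SE 0.10, adjusted p = 0.0282). Thra, at 35.7 to 54.2 FPKM over the 14 libraries, passed the test in none of the 5 comparisons, with log2 differences between stages of 0.11 (SE 0.13) in HIF2A cKO and -0.16 in WT uteri. Its 3' end shares 263 exon bases, 5.7% of its exons, with Nr1d1 on the opposite strand. Nr1d1, a nuclear receptor gene that is not among the 37 members, was higher at estrus by 2.05 in HIF2A cKO and 1.07 in WT uteri. Of 9 tested genes of thyroid hormone uptake, deiodination and response, 1 was higher and 2 lower at estrus in HIF2A cKO, and 2 were higher and 0 lower in WT uteri. Klf9, a target that thyroid hormone shares with glucocorticoids and progesterone, rose at estrus in both, by 1.14 (SE 0.20) and 0.75 (SE 0.20). At diestrus 2 of the 9 were higher in HIF2A cKO and 1 was lower, and the deiodinases that make active thyroid hormone went opposite ways. Dio1 was at 0.145 to 1.28 FPKM in HIF2A cKO and 0.533 to 9.22 FPKM in WT uteri at diestrus, with overlapping groups (log2 difference -1.31, SE 0.44, adjusted p = 0.0494). Dio2 averaged 111.6 FPKM in HIF2A cKO and 54.0 FPKM in WT uteri at diestrus (n = 4 each; log2 difference 1.12, SE 0.23, adjusted p = 0.00688).

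Rora, a retinoid-related orphan receptor known from the circadian clock, was also higher at estrus. Its estrus values were 5.26, 5.17 and 4.72 FPKM in HIF2A cKO and 5.09, 5.80 and 5.69 FPKM in WT uteri. Its diestrus values were 1.83, 1.42, 2.92 and 1.56 FPKM in HIF2A cKO and 2.98, 2.33, 3.51 and 3.27 FPKM in WT uteri. The stages did not overlap, and at diestrus replicate 3 of HIF2A cKO lay within the WT range. Rora rose at estrus by 1.07 (SE 0.15, adjusted p = 5.03e-05) in HIF2A cKO and 0.71 (SE 0.15, adjusted p = 0.00149) in WT uteri, and was lower in HIF2A cKO at diestrus by -0.47 (SE 0.14, adjusted p = 0.0283). Rorb, known from brain and retina, ranged between 1.91 and 4.15 FPKM and passed the test in no comparison. Without WT diestrus replicate 1, Rorb was lower at estrus in WT uteri by -0.38 (adjusted p = 0.0422).

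The retinoid X receptors, the shared partners of many members, had smaller log2 differences between stages than Vdr, Thrb and Rora. Rxra was at 27.8, 29.0 and 28.5 FPKM in HIF2A cKO and 27.2, 25.6 and 26.3 FPKM in WT uteri at estrus, and at 20.05, 20.6, 21.9 and 19.0 FPKM in HIF2A cKO and 19.0, 17.0, 17.6 and 20.9 FPKM in WT uteri at diestrus. No diestrus library reached the lowest estrus library, and the log2 difference was 0.46 (SE 0.07, adjusted p = 9.83e-05) in HIF2A cKO and 0.48 (SE 0.07, adjusted p = 1.07e-04) in WT uteri. Rxrb averaged 29.1 ± 1.40 FPKM in HIF2A cKO and 26.4 ± 1.63 FPKM in WT uteri at estrus (SD, n = 3 each), against 25.2 ± 2.42 FPKM in HIF2A cKO and 22.4 ± 1.10 FPKM in WT uteri at diestrus (SD, n = 4 each). Its log2 difference was 0.20 (SE 0.08, adjusted p = 0.0356) in HIF2A cKO, where the stages overlapped, and 0.23 (SE 0.08, adjusted p = 0.0209) in WT uteri. The call on Rxrb was lost in HIF2A cKO without its estrus replicate 2 or 4 or its diestrus replicate 1 or 4 (adjusted p of 0.0639 to 0.131), and in WT without estrus replicate 1 (adjusted p = 0.0961). Rxrg did not exceed 0.489 FPKM.

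Among the retinoic acid receptors, Rarg had the lowest p between genotypes of all tested receptors, at both stages. It was at 25.7, 24.3 and 23.8 FPKM in HIF2A cKO and 19.4, 17.9 and 18.6 FPKM in WT uteri at estrus. At diestrus it was at 35.2, 39.6, 33.6 and 30.9 FPKM in HIF2A cKO and 23.2, 23.2, 28.6 and 23.3 FPKM in WT uteri. HIF2A cKO libraries lay above WT libraries at each stage, and estrus libraries below diestrus libraries in each genotype. At diestrus the log2 difference between HIF2A cKO and WT was 0.49 (SE 0.08, adjusted p = 0.00396). At estrus it was 0.38 and did not pass the test (SE 0.09, adjusted p = 0.24, unadjusted p = 0.00151). Rarg fell at estrus by 0.48 on the log2 scale in HIF2A cKO (SE 0.09, adjusted p = 4.54e-04) and by 0.38 in WT uteri (SE 0.09, adjusted p = 0.00306). Fitting the 6 estrus libraries alone gave Rarg an adjusted p of 0.0150 between genotypes at estrus.

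Rara was at 15.4, 14.7 and 16.7 FPKM in HIF2A cKO and 17.1, 14.3 and 12.8 FPKM in WT uteri at estrus, and at 17.8, 19.4, 21.3 and 14.7 FPKM in HIF2A cKO and 13.6, 14.5, 14.1 and 12.8 FPKM in WT uteri at diestrus. The genotypes did not overlap at diestrus, where Rara was higher in HIF2A cKO by 0.38 (SE 0.11, adjusted p = 0.0249). It passed the test between stages in neither genotype. Without HIF2A cKO diestrus replicate 4, whose Rara was the lowest of its group, the stage difference in HIF2A cKO was -0.30 with an adjusted p of 0.0197.

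Rarb, an isoform of whose transcript is itself induced by retinoic acid, is the only member whose promoter window holds a direct repeat of the nuclear receptor half-site, and that window is shown here for this reason. A half-site was read as AGGTCA in its consensus form, or as one of the variants GGGTCA and also AGTTCA and likewise GGTTCA. Repeats of any pair of these were sought on both strands with 0 to 5 bases between them, in the 250 bases before each annotated start of 34 of the 37 members (54 windows, from RefSeq, GRCm38.p6). The window of Rarb lies at chr14:16575477-16575726 on the minus strand and reads 5' to 3' as follows, with the pair of half-sites that form the repeat in capitals. A single GGGTCA further upstream is left in lower case.

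Rarb: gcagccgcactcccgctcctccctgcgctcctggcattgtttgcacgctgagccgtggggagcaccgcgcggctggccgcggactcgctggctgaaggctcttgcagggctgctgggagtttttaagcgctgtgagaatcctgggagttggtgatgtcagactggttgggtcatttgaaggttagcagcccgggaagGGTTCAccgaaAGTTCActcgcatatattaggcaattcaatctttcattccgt

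The repeat has 5 bases between its half-sites and starts at base -53 from the start of transcription. A repeat with that spacing was found in 29 of 32851 promoter windows of all genes (0.0883%). Repeats with 0, 1, 2, 3 and 4 bases between were found in 61, 54, 57, 13 and 22 of these windows, and in 0 windows of members. As several spacings were sought, the share of 1 spacing understates how often such a search finds a repeat. Any single half-site was found in 38.6% of the windows of all genes and in 20 of the 54 windows of members. A match of letters is a description and does not show that a receptor binds there.

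Rarb values were 1.91, 2.60 and 2.65 FPKM in HIF2A cKO and 2.55, 3.16 and 2.47 FPKM in WT uteri at estrus. At diestrus they were 1.52, 1.55, 1.89 and 2.58 FPKM in HIF2A cKO and 6.50, 2.23, 3.01 and 6.89 FPKM in WT uteri. Replicates 1 and 4 of WT at diestrus stood above all other libraries, and the genotypes overlapped at that stage through HIF2A cKO replicate 4 and WT replicate 2. Rarb was lower in HIF2A cKO at diestrus by -0.88 (SE 0.25, adjusted p = 0.0258), and it passed no other comparison. Leaving out WT diestrus replicate 2 gave a stage difference in WT uteri of -0.74 with an adjusted p of 0.0187. Top2b, on the opposite strand, shares 1793 exon bases with Rarb, 34.1% of the exons of Rarb, and had a mean of 40.6 FPKM. Values of Rarb are therefore uncertain, like those of Nr1i3, and the part of Top2b in them was not tested. Top2b had the same sign as Rarb between genotypes at diestrus and did not pass the test (log2 difference -0.16, SE 0.07, adjusted p = 0.119). Of 10 tested genes of retinoic acid response and handling, 4 were higher and 3 lower at estrus in each genotype, and 0 passed between genotypes at diestrus. The shares of all genes between stages were 25.5% higher and 36.5% lower in HIF2A cKO, and 23% and 34.1% in WT uteri. Stra6, a receptor for retinol uptake, was at 2.52 ± 0.574 FPKM in HIF2A cKO and 5.80 ± 2.15 FPKM in WT uteri at estrus (SD, n = 3 each), against 22.1 ± 3.51 FPKM in HIF2A cKO and 31.7 ± 8.75 FPKM in WT uteri at diestrus (SD, n = 4 each). Dhrs3, which reduces retinal to retinol, went the other way, with 87.5 ± 6.96 FPKM at estrus in HIF2A cKO (SD, n = 3), against 26.1 ± 2.44 FPKM at diestrus (SD, n = 4).

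Among the fatty acid receptors, Pparg, the regulator of fat storage, was higher at estrus. It was at 2.84, 2.93 and 2.54 FPKM in HIF2A cKO and 3.10, 2.64 and 3.45 FPKM in WT uteri at estrus, and at 1.53, 0.882, 1.11 and 2.36 FPKM in HIF2A cKO and 0.827, 1.56, 1.35 and 1.30 FPKM in WT uteri at diestrus. The highest diestrus value, in HIF2A cKO replicate 4, came close to the lowest estrus value. Pparg rose at estrus by 0.65 (SE 0.17, adjusted p = 0.00606) in HIF2A cKO and 0.85 (SE 0.17, adjusted p = 0.0012) in WT uteri. Summed markers of adipocytes were 88.5 to 108 FPKM in HIF2A cKO and 63.1 to 168 FPKM in WT uteri at estrus, and 38.8 to 261 FPKM in HIF2A cKO and 40.5 to 71.0 FPKM in WT uteri at diestrus. The 261 FPKM belonged to HIF2A cKO diestrus replicate 4, the same library in which Pparg was highest at that stage, and the part of adipocytes in the Pparg values was not tested.

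Ppard, which is expressed in most tissues, was at 11.99 ± 0.327 FPKM in HIF2A cKO and 11.2 ± 0.560 FPKM in WT uteri at estrus (SD, n = 3 each), and at 12.9 ± 1.29 FPKM in HIF2A cKO and 10.9 ± 0.624 FPKM in WT uteri at diestrus (SD, n = 4 each). It was higher in HIF2A cKO at diestrus by 0.23 (SE 0.07, adjusted p = 0.0368), with overlapping groups. Between stages it passed in neither genotype; without HIF2A cKO diestrus replicate 4 it was lower at estrus in HIF2A cKO by -0.17 (adjusted p = 0.0313). Ppara, the regulator of fatty acid oxidation in liver, was below the filter. It spanned 0.464 to 0.595 FPKM in HIF2A cKO and 0.581 to 0.683 FPKM in WT uteri at estrus, and 0.821 to 0.852 FPKM in HIF2A cKO and 0.769 to 1.25 FPKM in WT uteri at diestrus, so that estrus lay below diestrus throughout. With no filter its log2 difference was -0.24 (SE 0.07, adjusted p = 0.0142) in HIF2A cKO and -0.28 (SE 0.07, adjusted p = 0.00697) in WT uteri. Of 19 tested PPAR target genes of fatty acid use, 11 were higher and 2 lower at estrus in HIF2A cKO, and 10 were higher and 2 lower in WT uteri. The shares of all genes were 25.5% higher and 36.5% lower in HIF2A cKO, and 23% and 34.1% in WT uteri. The median log2 difference of the 19 was 0.31 in HIF2A cKO and 0.28 in WT uteri, beside -0.08 and -0.09 for all genes. Pdk4, a kinase that limits glucose oxidation, was at 10.2 ± 0.599 FPKM in HIF2A cKO and 11.3 ± 0.540 FPKM in WT uteri at estrus (SD, n = 3 each), against 2.09 ± 0.658 FPKM in HIF2A cKO and 2.92 ± 1.37 FPKM in WT uteri at diestrus (SD, n = 4 each). Fabp3, a fatty acid carrier, was higher at estrus in WT uteri by 1.34 (SE 0.27, adjusted p = 0.00101). Between genotypes at diestrus, Angptl4, a secreted inhibitor of lipoprotein lipase that hypoxia-inducible factors also induce, was higher in HIF2A cKO by 1.17 (SE 0.28, adjusted p = 0.0131), and Acot1, a thioesterase that releases fatty acids from coenzyme A, was lower by -1.02 (SE 0.30, adjusted p = 0.0283). They were the 1 higher and the 1 lower gene of the 19 in that comparison.

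**Figure D3:**
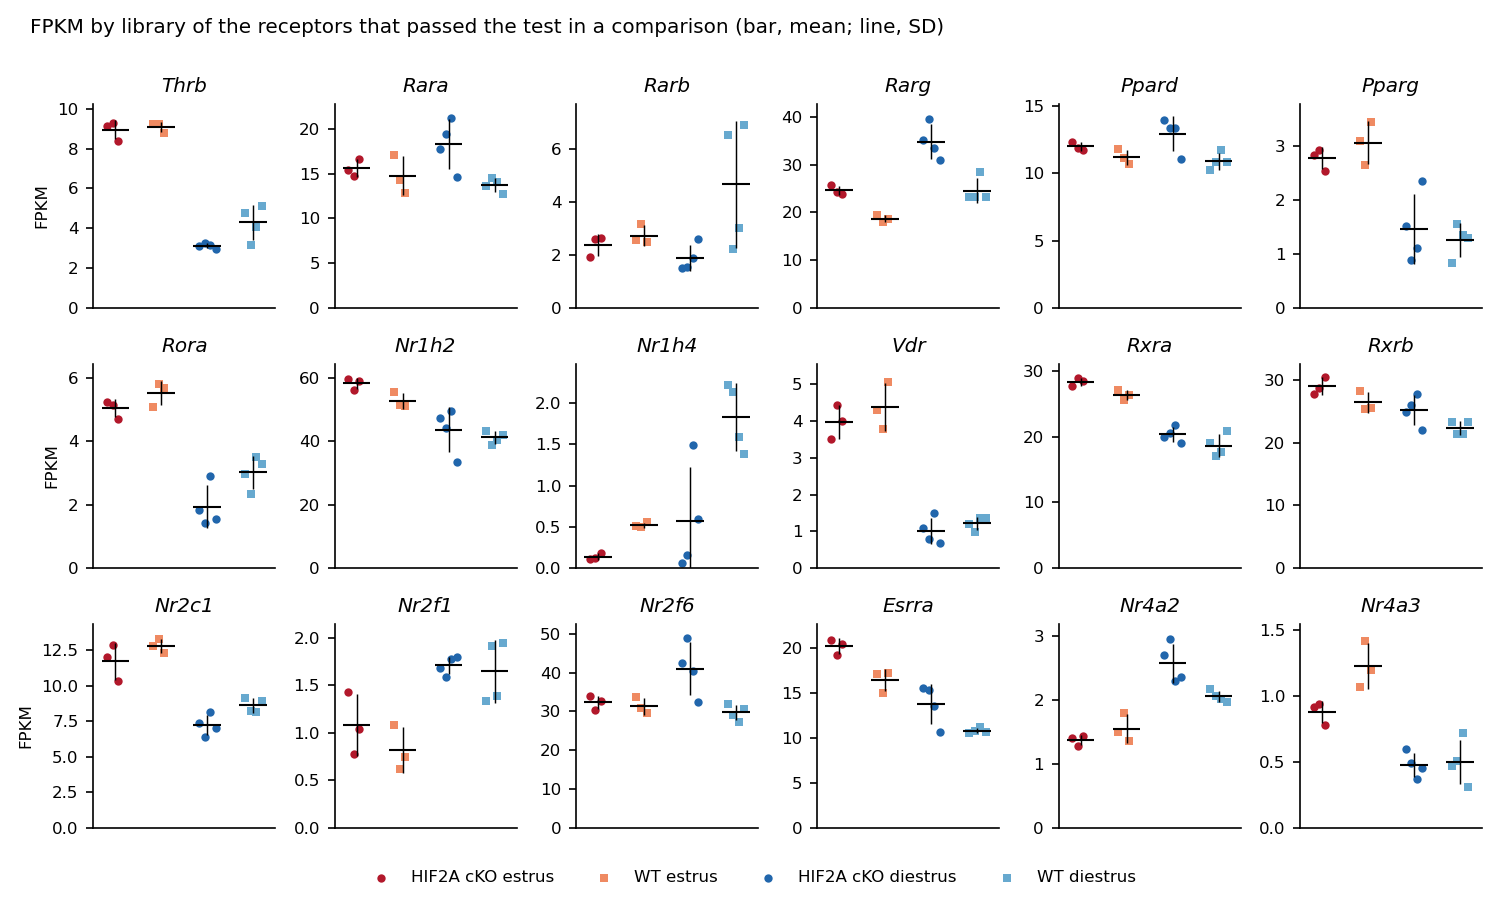
FPKM of the 18 receptors that passed the test in at least 1 comparison, 1 point per library, with groups from left to right HIF2A cKO at estrus, WT at estrus, HIF2A cKO at diestrus and WT at diestrus; the bar is the mean and the line the SD (n = 3 at estrus, n = 4 at diestrus). Each vertical axis starts at 0, and for Vdr, Thrb, Rora, Pparg, Nr1h2, Rxra, Nr2c1 and Nr4a3 the estrus points all lie above the diestrus points.

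Nr1h2, LXR beta, was the most abundant member and rose at estrus. It was at 59.6, 56.4 and 59.0 FPKM in HIF2A cKO and 55.6, 51.5 and 51.2 FPKM in WT uteri at estrus, and at 47.4, 44.3, 49.5 and 33.5 FPKM in HIF2A cKO and 43.4, 39.0, 40.5 and 42.1 FPKM in WT uteri at diestrus. Estrus libraries lay above diestrus libraries, and the log2 difference was 0.42 (SE 0.11, adjusted p = 0.00371) in HIF2A cKO and 0.35 (SE 0.11, adjusted p = 0.0134) in WT uteri. The WT call was lost without WT estrus replicate 1 (adjusted p = 0.0543). Without HIF2A cKO diestrus replicate 4, the lowest of the 14 libraries, Nr1h2 was higher in HIF2A cKO than in WT at diestrus by 0.19 with an adjusted p of 0.0332. Nr1h3, LXR alpha, stood at 4.92 ± 0.0405 FPKM in HIF2A cKO and 4.98 ± 0.510 FPKM in WT uteri at estrus (SD, n = 3 each), and 4.41 ± 0.856 FPKM in HIF2A cKO and 5.15 ± 1.32 FPKM in WT uteri at diestrus (SD, n = 4 each), and passed no test.

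Of 12 tested LXR target genes, 6 were higher and 5 lower at estrus in HIF2A cKO, and 5 were higher and 0 lower in WT uteri. The shares of all genes were 25.5% higher and 36.5% lower in HIF2A cKO, and 23% and 34.1% in WT uteri. The cholesterol exporters were among the LXR targets that rose. Abca1 was at 49.3 ± 3.98 FPKM in HIF2A cKO and 61.6 ± 7.34 FPKM in WT uteri at estrus (SD, n = 3 each), against 8.34 ± 1.57 FPKM in HIF2A cKO and 17.3 ± 7.44 FPKM in WT uteri at diestrus (SD, n = 4 each). Abcg1 was at 15.9 ± 1.06 FPKM in HIF2A cKO and 17.0 ± 0.906 FPKM in WT uteri at estrus (SD, n = 3 each), against 2.55 ± 0.339 FPKM in HIF2A cKO and 4.69 ± 2.54 FPKM in WT uteri at diestrus (SD, n = 4 each). Smpdl3a, a phosphodiesterase secreted by macrophages on sterol loading, rose in HIF2A cKO by 2.39 (SE 0.13, adjusted p = 2.94e-08). Macrophage markers moved in the same direction between the stages, as given above, and their part was not tested. At diestrus Abca1 was lower in HIF2A cKO by -0.86 (SE 0.27, adjusted p = 0.0381) and Lpl, lipoprotein lipase, was higher by 1.07 (SE 0.31, adjusted p = 0.0276).

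Nr1h4, the bile acid receptor FXR, was low in every group and varied most among the tested members. It was at 0.111, 0.117 and 0.183 FPKM in HIF2A cKO and 0.509, 0.493 and 0.552 FPKM in WT uteri at estrus, and at 0.056, 0.162, 1.49 and 0.595 FPKM in HIF2A cKO and 2.21, 2.14, 1.58 and 1.38 FPKM in WT uteri at diestrus. HIF2A cKO libraries lay below WT libraries at estrus, and at diestrus HIF2A cKO replicate 3 alone reached the WT range. With no filter on low values, Nr1h4 was lower in HIF2A cKO at diestrus by -0.92 (adjusted p = 0.0197), and with the filter the difference at estrus of -0.42 (SE 0.25, adjusted p = 0.809) did not pass. Over the cycle it fell at estrus in WT uteri by 0.89 on the log2 scale, also with no filter (adjusted p = 0.00985). In HIF2A cKO uteri the stage difference, with the filter, was -0.39 (SE 0.23, adjusted p = 0.167), and without diestrus replicate 1 it was -0.55 with an adjusted p of 0.0484. Of the 9 listed FXR targets of bile acid handling, 0 passed the filter. Nr0b2 (SHP), a corepressor-like receptor that FXR induces in liver, was below the filter too. It was at 0.079, 0 and 0 FPKM in HIF2A cKO and 0.030, 0.045 and 0.049 FPKM in WT uteri at estrus, and at 0.258, 0.638, 0.858 and 0.378 FPKM in HIF2A cKO and 0.444, 0.524, 0.272 and 0.221 FPKM in WT uteri at diestrus. Estrus libraries lay below diestrus libraries in both genotypes, and with no filter the log2 difference was -0.56 (SE 0.12, adjusted p = 0.00185) in HIF2A cKO and -0.38 (SE 0.12, adjusted p = 0.0203) in WT uteri.

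Esrra, the estrogen-related receptor alpha, has no known natural hormone and is known for the control of mitochondrial genes. It was at 21.0, 19.3 and 20.4 FPKM in HIF2A cKO and 17.2, 15.0 and 17.2 FPKM in WT uteri at estrus. At diestrus it was at 15.6, 15.4, 13.5 and 10.7 FPKM in HIF2A cKO and 10.6, 10.8, 11.2 and 10.6 FPKM in WT uteri. The stages did not overlap within a genotype, and the genotypes did not overlap at estrus. Esrra rose at estrus by 0.53 (SE 0.10, adjusted p = 6.46e-04) in HIF2A cKO and 0.56 (SE 0.10, adjusted p = 5.66e-04) in WT uteri. It was higher in HIF2A cKO at diestrus by 0.31 (SE 0.10, adjusted p = 0.0333), and at estrus by 0.28 (SE 0.11, adjusted p = 0.592), which did not pass. Of 13 tested ERR target genes of mitochondrial energy use, 1 was higher and 10 lower at estrus in HIF2A cKO, and 1 was higher and 9 lower in WT uteri, with medians of -0.46 and -0.35. The shares of all genes were 25.5% higher and 36.5% lower in HIF2A cKO, and 23% and 34.1% in WT uteri, with medians of -0.08 and -0.09. Cycs, cytochrome c, was at 5.98 ± 0.660 FPKM in HIF2A cKO and 6.08 ± 0.282 FPKM in WT uteri at estrus (SD, n = 3 each), against 18.0 ± 4.63 FPKM in HIF2A cKO and 13.7 ± 3.41 FPKM in WT uteri at diestrus (SD, n = 4 each). Cox6c, a subunit of cytochrome c oxidase, fell at estrus in WT uteri by 1.10 on the log2 scale (SE 0.11, adjusted p = 6.05e-06). At diestrus 3 of the 13 were higher in HIF2A cKO and 0 lower, among them Uqcrc1, a subunit of complex III, by 0.37 (SE 0.06, adjusted p = 0.00421).

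Ppargc1a, the PGC-1 alpha coactivator that works with the ERR and PPAR receptors, was at 4.31 ± 0.248 FPKM in HIF2A cKO and 4.48 ± 0.321 FPKM in WT uteri at estrus (SD, n = 3 each). At diestrus it was at 0.774 ± 0.0905 FPKM in HIF2A cKO and 1.35 ± 0.380 FPKM in WT uteri (SD, n = 4 each), a log2 difference between stages of 1.58 (SE 0.11) and 1.23 (SE 0.11). Its relative Pprc1 moved the opposite way, by -1.30 (SE 0.09) in HIF2A cKO and -0.79 (SE 0.09) in WT uteri. Of 22 tested coregulators, 3 were higher and 8 lower at estrus in HIF2A cKO, and 5 were higher and 8 lower in WT uteri. The shares of all genes between stages were 25.5% higher and 36.5% lower in HIF2A cKO, and 23% and 34.1% in WT uteri. Between genotypes at diestrus 7 coregulators were higher in HIF2A cKO and 1 was lower, where 13.8% of all genes were higher and 10% lower. Nrip1 (RIP140), a corepressor that estrogen induces, was at 20.1 ± 4.82 FPKM in HIF2A cKO and 10.1 ± 1.18 FPKM in WT uteri at that stage (SD, n = 4 each; log2 difference 0.91, SE 0.14, adjusted p = 0.00349).

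The other estrogen-related and estrogen receptors were barely detected. Esr2 was at 0.091, 0.084 and 0.061 FPKM in HIF2A cKO and 0.047, 0.101 and 0.113 FPKM in WT uteri at estrus, and at 0.173, 0.182, 0.009 and 0.192 FPKM in HIF2A cKO and 0.032, 0.059, 0 and 0.064 FPKM in WT uteri at diestrus. These values overlapped between all groups compared. For scale, Esr1, estrogen receptor alpha and the main form in the uterus, was at 82.6 ± 8.23 FPKM in HIF2A cKO and 88.5 ± 5.22 FPKM in WT uteri at estrus (SD, n = 3 each). Esr1 was at 106 ± 8.42 FPKM in HIF2A cKO and 83.8 ± 6.79 FPKM in WT uteri at diestrus (SD, n = 4 each), higher in HIF2A cKO by 0.33 (SE 0.08, adjusted p = 0.0164). Of the 4 listed estrogen receptor partners and targets, 0 were higher and 3 lower at estrus in HIF2A cKO, and 0 were higher and 2 lower in WT uteri, with Pgr, the progesterone receptor, lower by -1.51 (SE 0.16) and -1.34 (SE 0.16). At diestrus 2 of the 4 were higher in HIF2A cKO, Esr1 and Greb1, an estrogen-induced cofactor.

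Of the testicular and COUP-type orphan receptors, Nr2c1 (TR2) was at 12.03, 12.9 and 10.3 FPKM in HIF2A cKO and 12.8, 13.3 and 12.3 FPKM in WT uteri at estrus, and at 7.37, 6.43, 8.14 and 7.04 FPKM in HIF2A cKO and 9.17, 8.22, 8.15 and 8.92 FPKM in WT uteri at diestrus. It did not overlap between the stages and rose at estrus by 0.63 (SE 0.09, adjusted p = 4.12e-05) in HIF2A cKO and 0.52 (SE 0.09, adjusted p = 2.41e-04) in WT uteri. At diestrus HIF2A cKO libraries lay below WT libraries, with a log2 difference of -0.22 (SE 0.08, adjusted p = 0.0551) that did not pass. Nr2c2 (TR4), its close relative, spanned 9.66 to 12.8 FPKM and passed no test. It shares 30.7% of its exon bases with Mrps25 on the opposite strand, so its values are uncertain too. Mrps25 was lower at estrus by -0.68 (SE 0.11) in HIF2A cKO and -0.64 (SE 0.11) in WT uteri, and its part in the Nr2c2 values was not tested. Nr2f1 (COUP-TFI) was at 1.43, 0.780 and 1.04 FPKM in HIF2A cKO and 1.09, 0.623 and 0.749 FPKM in WT uteri at estrus, and at 1.68, 1.59, 1.77 and 1.79 FPKM in HIF2A cKO and 1.34, 1.91, 1.39 and 1.95 FPKM in WT uteri at diestrus. Estrus libraries lay below diestrus libraries in each genotype, and Nr2f1 fell by 0.39 on the log2 scale (SE 0.13, adjusted p = 0.0187) in HIF2A cKO and by 0.54 (SE 0.13, adjusted p = 0.00334) in WT uteri. The HIF2A cKO call was lost without estrus replicate 2 or 4 (adjusted p of 0.101 and 0.0524).

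Nr2f6 was at 33.9, 30.5 and 32.7 FPKM in HIF2A cKO and 33.7, 30.8 and 29.5 FPKM in WT uteri at estrus, and at 42.5, 48.9, 40.3 and 32.4 FPKM in HIF2A cKO and 31.9, 29.0, 27.4 and 30.7 FPKM in WT uteri at diestrus. HIF2A cKO libraries at diestrus lay above the WT libraries of that stage, though replicate 4 was close to the highest WT value. The genotype difference at diestrus was 0.44 (SE 0.10, adjusted p = 0.0114). Nr2f6 fell at estrus in HIF2A cKO uteri by 0.32 on the log2 scale (SE 0.11, adjusted p = 0.0222), with overlapping groups, and the stage difference in WT uteri was 0.07 and did not pass. The HIF2A cKO stage call was lost under median-of-ratios scaling (adjusted p = 0.0590), under quantile normalization (adjusted p = 0.0942), and without HIF2A cKO diestrus replicate 1 or 2 or estrus replicate 2 (adjusted p of 0.0507 to 0.0831). Nr2f6 shares 54.4% of its exon bases with Ocel1 on the opposite strand, which had a mean of 7.16 FPKM and passed in none of the 5 comparisons. Values of Nr2f6 are uncertain for this reason, and the part of Ocel1 in them was not tested.

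The NR4A receptors are immediate early genes that act without a known hormone. Nr4a3 was at 0.916, 0.941 and 0.783 FPKM in HIF2A cKO and 1.07, 1.42 and 1.20 FPKM in WT uteri at estrus, and at 0.598, 0.493, 0.375 and 0.452 FPKM in HIF2A cKO and 0.469, 0.509, 0.720 and 0.313 FPKM in WT uteri at diestrus. With no filter on low values, it was higher at estrus by 0.35 (adjusted p = 0.00617) in HIF2A cKO and 0.57 (adjusted p = 2.98e-04) in WT uteri. With the filter, the HIF2A cKO difference did not pass once the 2 libraries highest in Rn45s were left out (adjusted p = 0.0637). Nr4a2 was at 1.40, 1.29 and 1.44 FPKM in HIF2A cKO and 1.502, 1.801 and 1.36 FPKM in WT uteri at estrus, and at 2.70, 2.96, 2.31 and 2.36 FPKM in HIF2A cKO and 2.18, 2.07, 2.02 and 1.97 FPKM in WT uteri at diestrus. Every estrus library lay below every diestrus library, and Nr4a2 fell by 0.59 on the log2 scale (SE 0.09, adjusted p = 7.73e-05) in HIF2A cKO and by 0.26 (SE 0.09, adjusted p = 0.0199) in WT uteri. The WT call was lost under both scalings (adjusted p of 0.0533 and 0.0556) and without WT estrus replicate 1 or 4 (adjusted p of 0.0597 and 0.0958). Nr4a1 (Nur77), between 3.61 and 8.69 FPKM, passed no test; its highest and lowest values were both at diestrus. Of 13 tested immediate early genes, 4 were higher and 1 lower at estrus in HIF2A cKO, and 6 were higher and 0 lower in WT uteri. The shares of all genes were 25.5% higher and 36.5% lower in HIF2A cKO, and 23% and 34.1% in WT uteri. Ier3 was higher by 1.39 (SE 0.38) and 1.91 (SE 0.38), and Fos in WT uteri by 1.22 (SE 0.45, adjusted p = 0.0332).

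Nr6a1 (GCNF), known from germ cells, lay between 1.04 and 1.62 FPKM and passed no test. Nr5a2 (LRH-1), known from the ovary and liver, was at 0.583, 0.440 and 0.484 FPKM in HIF2A cKO and 0.683, 0.508 and 0.458 FPKM in WT uteri at estrus. At diestrus it was at 1.18, 0.826, 0.996 and 0.764 FPKM in HIF2A cKO and 0.430, 0.544, 1.18 and 0.622 FPKM in WT uteri. The stages did not overlap in HIF2A cKO uteri and did in WT uteri. With no filter Nr5a2 had a stage difference of -0.37 (SE 0.13, adjusted p = 0.0338) in HIF2A cKO and -0.11 (SE 0.13, adjusted p = 0.548) in WT uteri. Of 4 tested NR5A targets of steroidogenesis, 2 were higher and 1 lower at estrus in HIF2A cKO, and 1 was higher and 0 lower in WT uteri; Star, the cholesterol carrier of steroid-making cells, was higher in both, by 1.19 (SE 0.21) and 0.73 (SE 0.21). For the xenobiotic receptors, 6 of 13 listed targets could be tested, with 2 higher and 1 lower at estrus in each genotype. Por, the electron donor of cytochrome P450 enzymes, was higher by 1.02 (SE 0.12) in HIF2A cKO and 0.96 (SE 0.12) in WT uteri.

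Between the genotypes at diestrus, 5 of the 24 tested receptors were higher in HIF2A cKO (Rara, Rarg, Ppard, Nr2f6 and Esrra) and 4 lower (Thrb, Rarb, Rora and Nr1h4), where 13.8% of all genes were higher and 10% lower. Without Nr4a3 and Nr1h4 it was 5 and 3 of 22. The median log2 difference of the receptors was 0.01, beside 0.02 for all genes. Of these 9 calls, that on Rarg alone held in each of the 28 other settings tried. The diestrus libraries of the genotypes carry the same replicate numbers, and no label says whether these mark pairs. A replicate block in the fit of 14 libraries kept the 9 calls, while a block in the 8 diestrus libraries alone left 2 higher and 2 lower (Rara, Rarg, Rarb and Rora). Without a block, those 8 libraries alone left Rarg. Values of the genotypes did not overlap for 4 receptors higher in HIF2A cKO (Rara, Rarg, Nr2f6 and Nr4a2) and 1 lower (Nr2c1), where 8.8% and 6.96% of all genes had such groups. The calls on Thrb, Rara, Rarb, Rora, Esrra and Ppard were each lost when HIF2A cKO replicate 1 or 2, or WT replicate 1 or 4, of diestrus was left out, with adjusted p from 0.0559 to 0.111. The calls on Rora and Thrb were also lost without the 2 libraries highest in Rn45s (adjusted p of 0.0759 and 0.0665), and that on Rora without HIF2A cKO replicate 4 or WT replicate 3 of diestrus. The call on Esrra was also lost without WT diestrus replicate 3 (adjusted p = 0.0503). That on Ppard was also lost without HIF2A cKO diestrus replicate 3, WT diestrus replicate 2, any 1 HIF2A cKO estrus library or WT estrus replicate 2, at adjusted p of 0.0501 to 0.0537. Nr2c1, Nr4a2 and Rxrb, which were not called, passed at diestrus without 1 library: Nr2c1 without HIF2A cKO diestrus replicate 3 or estrus replicate 4 (adjusted p of 0.0178 and 0.0450), Nr4a2 without HIF2A cKO diestrus replicate 3 or 4 (0.0305 and 0.0464), and Rxrb without HIF2A cKO diestrus replicate 4 (0.0229). Some marker sums differed between genotypes at this stage, and the part of markers in the receptor differences was not tested. Epithelial markers summed to 474 to 1090 FPKM in HIF2A cKO and 383 to 672 FPKM in WT uteri, with overlapping groups. Of the 12 epithelial markers, 2 were higher and 1 lower in HIF2A cKO. The 4 transcripts read for RNA quality summed to 306, 312, 360 and, in replicate 4, 2001 FPKM in HIF2A cKO, and to 613 to 712 FPKM in WT uteri, so that no HIF2A cKO library lay in the WT range. Ovarian and steroidogenic markers summed to 35.0 to 43.3 FPKM in HIF2A cKO and 21.8 to 30.6 FPKM in WT uteri, without overlap, while 11 of the 13 stayed below 1 FPKM.

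At estrus, 0 of the 24 receptors passed the limma test between HIF2A cKO and WT uteri, and 3 had an unadjusted p under 0.05: Rarg, Esrra and Nr4a3. Of all genes tested, 0.105% passed, with 0.07% higher and 0.035% lower. The values did not overlap for 6 receptors that lay higher in HIF2A cKO (Thra, Rarg, Nr1h2, Rxra, Esrra and Nr6a1). Nor did they for 3 that lay lower (Nr1h4, Nr4a1 and Nr4a3). Of all genes, 14.4% and 12% had groups that did not overlap in those directions. Nr4a3 passed the filter only through WT at estrus, so its p and its lack of overlap here are not independent of the filter. With no filter on low values its limma difference was -0.25 (adjusted p = 0.546). A fit that gives less weight to libraries that scatter more around their group means called 3 receptors higher and 1 lower. The 1 lower was Nr4a3, with the filter (adjusted p = 0.0491).

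The difference in stage effect between the genotypes passed the limma test for 0 receptors in either direction and for 0.035% of all genes, 0.014% higher and 0.021% lower, and 2 receptors had an unadjusted p under 0.05. They were Nr4a2, with a difference of -0.32 (SE 0.12, adjusted p = 0.219), and Nr2f6, with -0.39 (SE 0.16, adjusted p = 0.232). Receptors that passed between stages in 1 genotype, such as Nr2f6 and Nr1h4, are therefore not shown to differ between the genotypes in their stage effect. The same holds for pathway genes given above in 1 genotype, such as Smpdl3a, Spp1, Dhrs3, Fabp3, Cox6c and Fos, as 0 genes of their lists passed this test. With library weights 10 receptors passed this test, among them Nr4a3 and Nr1h4, for which it is not independent of the filter.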

How the data were processed

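Column-purified, DNase-treated total RNA went into Illumina TruSeq RNA libraries, per the labels. The authors deposited 1 table of FPKM values, made with TopHat2 2.0.4 and Cufflinks 2.0.2 on mm10, per the submitters' processing notes. Strandedness, read totals and filters are not known from the labels or the file. Read depth is unknown: the lowest values linked 7 libraries, whose relative depths differed by up to 1.88 times. Low FPKM values are therefore of uncertain precision.

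Groups followed the labels. With limma 3.58.1 (R 4.3.3), log2(FPKM + 1) of genes at 1 FPKM or more in at least 3 libraries was fitted with 4 group means and a trend on the variance, and p-values were adjusted over 14278 genes. Left out were 7 genes listed at 0 in a whole group and averaging at least 50 FPKM in another. The test was tried on simulated data. Same-numbered libraries of the genotypes deviated together at diestrus (r = 0.321, 0.115, 0.622 and 0.217) and not at estrus (r = 0.080, 0.096 and -0.047) or across stages. At diestrus, however, HIF2A cKO replicate 2 correlated best with WT replicate 1. No label says what the number marks.

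Members and gene lists were chosen with earlier results of these data known. Every member is named; from each pathway list up to 2 called genes with the largest difference per comparison may be named. Epas1 and genes that share exons with members are named too. Promoter windows are from RefSeq (GRCm38.p6) and exon overlaps from GENCODE on mm10. The alternatives tried were other pseudocounts, filters, scalings and fits, leaving out libraries, and a replicate block.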

Additional observations from a re-analysis of the deposited data

Results flagged for a closer look

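Replicate 3 of the WT diestrus group stood apart in Rarg, at 28.6 FPKM, while the other 3 libraries of the group lay between 23.2 and 23.3 FPKM. Its gap to the nearest library exceeded Dixon's critical value for 4 samples. It was the 1 such value among 48 sets of 4 diestrus libraries examined, where chance gives about 1 in 20. The genotype difference of Rarg at diestrus passed the test with and without this library.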

How the results depend on the processing

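The 24 tested receptors gave 37 calls over the 5 comparisons, of which 15 were lost in at least 1 of the 28 other settings and 0 changed sign. At diestrus between genotypes, the receptors higher and lower in HIF2A cKO numbered 5 and 4; they were 1 and 0 with only the libraries compared, 2 and 2 with a replicate block in the diestrus libraries alone, and 2 to 8 and 1 to 5 when single libraries were left out. The number lower was 7 with library weights and 2 without the 2 libraries highest in Rn45s. All genes called there numbered 3410, against 430, 7885 with weights, 2119 with the block, and 1473 to 5013 without single libraries. Receptors lower at estrus numbered 4 in HIF2A cKO uteri, 7 with no filter, 2 with a filter at 5 FPKM, and 2 to 6 without single libraries; in WT uteri they numbered 4, and 1 with the filter at 5 FPKM.

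Between genotypes at estrus the receptors called were 0. With only the libraries compared 1 was higher, and with weights 3 were higher and 1 lower. The 1 lower was Nr4a3, which passed the filter only through WT at estrus. All genes called at estrus were 15, and 7 with a pseudocount of 0.1, 26 with no filter, 0 with the filter at 5 FPKM, 23 with quantile normalization, 441 with only the libraries compared, 1331 with weights, 63 without both diestrus libraries numbered 3, 1 without the 2 highest in Rn45s, and 0 to 29 without single libraries. In the test of the stage effect between genotypes, weights called 5 receptors higher and 5 lower. All genes called there were 5, and 8 with a pseudocount of 0.1 or 0.5, 11 with no filter, 10 with quantile normalization, 5225 with weights, 12 with genes listed at 0 kept, 462 with a replicate block, 1204 without both libraries numbered 3, 11 without the 2 highest in Rn45s, and 0 to 1181 without single libraries. The cause of these shifts was not tested. The replicate block in the 14-library fit lost none of the receptor calls. It added Nr4a2 at diestrus (adjusted p = 0.0475), and Nr1h3 and Thra over the cycle in HIF2A cKO uteri (adjusted p = 0.0187 and 0.0216), where same-numbered libraries did not deviate together.

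Median-of-ratios scaling moved the share of higher among called genes to 47.5% in HIF2A cKO, against 41.1%, and to 49.3% in WT uteri, against 40.3%. Receptors near or below 1 FPKM are limited by depth, which is unknown. The 2 added settings for receptors below the filter (no filter, with pseudocounts of 1 and 0.1) and those leaving out the libraries numbered 3 or highest in Rn45s, and the block in diestrus libraries alone, were chosen after seeing the data. With a pseudocount of 0.1 the stage difference of Nr0b2 was -2.28 in HIF2A cKO and -1.67 in WT uteri.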
